A study of Mus musculus with 3 samples.

Results

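The 35 genes described here encode the machinery of the chemical synapse: synaptic vesicle proteins, the fusion and active zone proteins of the presynaptic terminal, and scaffold, kinase and adhesion proteins of the postsynaptic side. They were taken by gene symbol from a table of 24054 genes, and all 35 were found. RNA was sequenced from primary cortical neurons of embryonic day 17 C57BL/6 mice, cultured for 7 days before treatment. The groups were hypoxia with T3 (7 hours in 0.2% oxygen, with triiodothyronine, the active thyroid hormone, at 5 nM), hypoxia (7 hours in 0.2% oxygen, no T3) and control (21% oxygen). Each holds 1 library, and the labels state neither the number of animals pooled nor the hormone content of the control medium. No difference below could therefore be tested against the spread between replicates, and the 95% intervals beside the folds cover counting error only.

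Transmitter is released when a vesicle docked at the active zone fuses with the plasma membrane. Fusion is driven by the SNARE proteins synaptobrevin (Vamp genes), syntaxin and SNAP-25, clamped by complexin and triggered by calcium binding to synaptotagmin, while RIM, Munc13, Bassoon and Piccolo hold vesicles and channels in place. On the opposite side PSD-95 and the Shank proteins anchor glutamate receptors, gephyrin anchors inhibitory receptors, and neuroligins span the cleft to presynaptic neurexins.

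The libraries hold 22533574 reads in hypoxia with T3, 17118865 in hypoxia and 18081904 in control, and levels are given as CPM, reads relative to a scaled library size. Reads of the 35 genes made up 1.17% of all reads in hypoxia with T3, 1.17% in hypoxia and 1.08% in control. The 12 neuron markers listed summed to 10155.7 CPM in hypoxia with T3, 10126.3 in hypoxia and 9153 in control. Over all genes the CPM values summed to 958205 in hypoxia with T3, 945496 in hypoxia and 837997 in control. Sums of a list in CPM are therefore not shares of a library, and a lower sum in control may reflect the scaling. Of the 12, 10 were higher in hypoxia than in control, against 54.5% of the 12692 genes compared below. This count was not repeated with libraries scaled to equal sums. The neuronal nuclear protein gene Rbfox3 stood at 91.3 CPM in hypoxia with T3, 94.5 CPM in hypoxia and 75.4 CPM in control. The exceptions were Tubb3, the neuronal beta-tubulin gene, at 739 CPM in hypoxia with T3, 873 CPM in hypoxia and 1771 CPM in control, and Elavl4, an RNA-binding protein gene, at 100.4 CPM in hypoxia with T3, 93.2 CPM in hypoxia and 126 CPM in control. Markers of other cells were detected too. The astrocyte gene Gfap stood at 13.9 CPM in hypoxia with T3, 23.7 CPM in hypoxia and 15.2 CPM in control. More abundant astrocyte genes differed among themselves. Slc1a2, a glutamate transporter gene, at 169 CPM in hypoxia with T3, 139.7 CPM in hypoxia and 177 CPM in control, and Fabp7, at 308 CPM in hypoxia with T3, 267 CPM in hypoxia and 298 CPM in control, were lowest in hypoxia, where Gfap was highest. Slc1a3, at 222 CPM in hypoxia with T3, 219.9 CPM in hypoxia and 199.7 CPM in control, was lowest in control. Of the 9 astrocyte markers compared, 6 were higher in hypoxia than in control, against 54.5% of all genes compared, and 3 lower. The oligodendrocyte progenitor gene Pdgfra stood at 22.3 CPM in hypoxia with T3, 27.2 CPM in hypoxia and 63.2 CPM in control. The microglial gene Aif1 had 4 reads in hypoxia with T3, 2 in hypoxia and 1 in control, and the endothelial gene Cldn5 had 0 in hypoxia with T3, 0 in hypoxia and 1 in control. A count of 0 allows up to 0.128 CPM in hypoxia with T3 and 0.166 CPM in hypoxia. Summed over each list, oligodendrocyte lineage markers stood at 206 CPM in hypoxia with T3, 204 CPM in hypoxia and 349 CPM in control, and astrocyte markers at 905 CPM in hypoxia with T3, 852 CPM in hypoxia and 851 CPM in control. The part of cell makeup in the results was not tested. In such a mixed culture fewer cells of a type and less RNA per cell cannot be told apart.

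A mean over the libraries of 1 CPM or more was required, which 34 of the 35 genes met, among 12692 in all. The one below it was Syt2, a calcium sensor of fast release, with 14 reads in hypoxia with T3, 13 in hypoxia and 23 in control, too few for a comparison. Levels between genes are compared per kilobase of annotated exon. On that scale (CPM per kb) Vamp2, the main synaptobrevin of the forebrain, was highest in every library, with 259.9 in hypoxia with T3, 256 in hypoxia and 176 in control. The synapsin gene Syn1 had 188 in hypoxia with T3, 182 in hypoxia and 137 in control, the small GTPase gene Rab3a 187 in hypoxia with T3, 191 in hypoxia and 123 in control, and Syt4, a synaptotagmin with weak calcium binding, 171 in hypoxia with T3, 179.9 in hypoxia and 143 in control. Lowest in every library stood Syt2, then Vamp1, the second synaptobrevin, with 0.761 in hypoxia with T3, 0.646 in hypoxia and 0.406 in control. Next came Rims2, a RIM scaffold, with 2.44 in hypoxia with T3, 2.29 in hypoxia and 3.997 in control, and Slc17a6, the vesicular glutamate transporter VGLUT2, with 3.001 in hypoxia with T3, 3.46 in hypoxia and 3.77 in control. Rims2 was the lower of these in both hypoxic libraries and Slc17a6 in control. The cultures thus held far more transcript per kb of Vamp2 than of Vamp1, and of Slc17a7 (VGLUT1), at 24.3 in hypoxia with T3, 22.8 in hypoxia and 20.3 in control, than of Slc17a6.

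**Figure D1:**
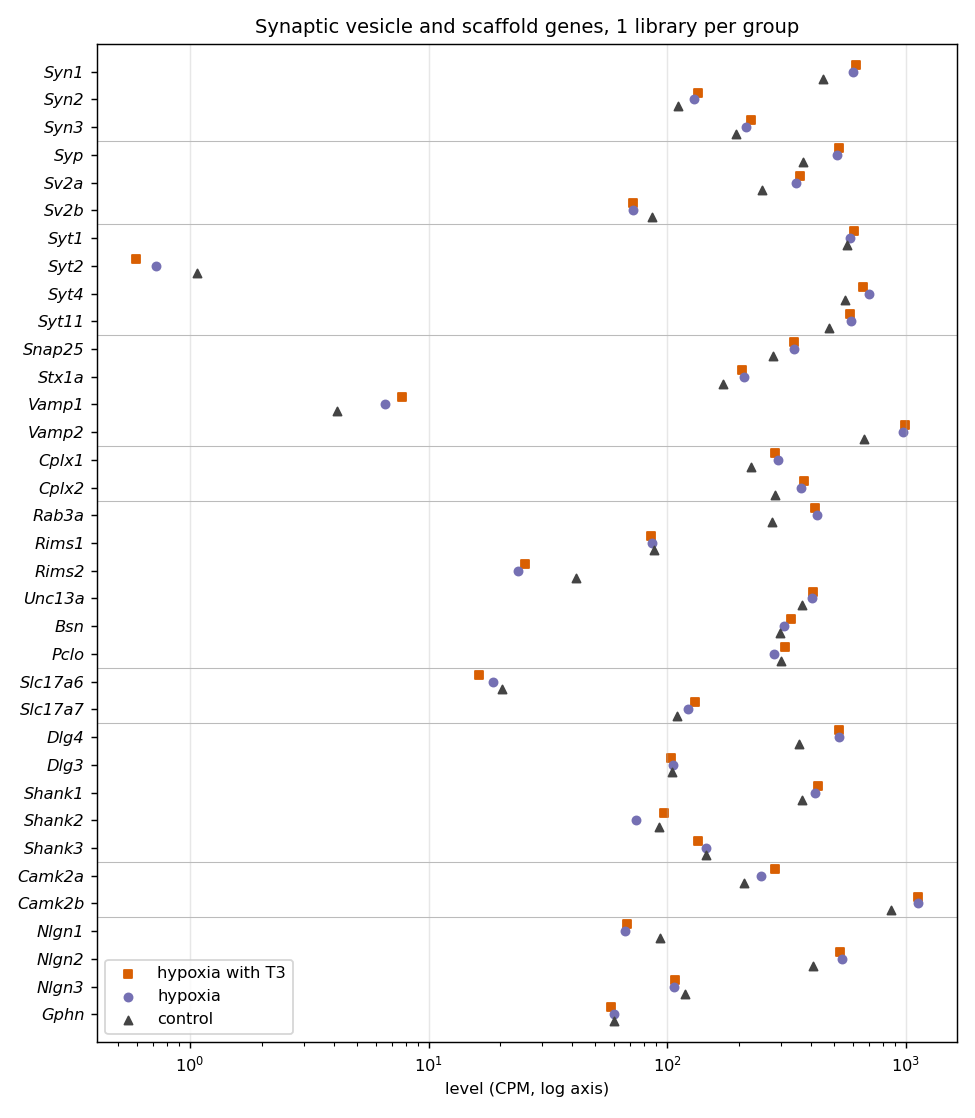
Level of each of the 35 genes in CPM (log axis, not corrected for length), grouped by role with lines between the groups; each point is 1 library. In most rows the points of hypoxia with T3 and of hypoxia lie close together and right of the control, as for Vamp2, Rab3a and Dlg4, while Rims2 and Nlgn1 lie left of it.

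Promoter sequences were available for 26 of the 35 genes, from RefSeq (GRCm38.p6, the same assembly as mm10), as the 250 bases before an annotated start. The GC box, GGGCGG on either strand, was found in 19 of the 26, against 58.1% of 12276 promoters of compared genes and 32.7% of all 32851 promoters listed. ACGTG on either strand, 1 form of the core of the hypoxia response element, was in 4 of them, against 21.6% of promoters of compared genes. The 4 were Cplx1, Rims1, Unc13a and Slc17a7. No other form of that core was searched for, so the other promoters are not shown to lack it. The cyclic AMP response element TGACGTCA was in 1, Syn1, against 2.72%. The direct repeat thyroid hormone response element, AGGTCA written 2 times with 4 bases between, was in none of the 26 and in 0% of promoters of compared genes. ACGTG also lies within the E-box CACGTG. Below are 2 promoters of genes that were higher in hypoxia than in control, Rab3a (chr8:70754453-70754702, plus strand) and Nlgn2 (chr11:69837785-69838034, minus strand), and 2 of genes that were lower, Pclo (chr5:14514668-14514917, plus strand) and Sv2b (chr7:75309263-75309512, minus strand). They are written 5′ to 3′ with GC boxes in capitals.
Rab3a: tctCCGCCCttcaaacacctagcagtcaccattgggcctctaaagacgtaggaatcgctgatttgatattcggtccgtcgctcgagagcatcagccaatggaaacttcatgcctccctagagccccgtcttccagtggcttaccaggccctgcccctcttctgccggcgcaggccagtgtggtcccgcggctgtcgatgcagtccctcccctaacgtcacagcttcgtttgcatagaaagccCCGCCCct
Nlgn2: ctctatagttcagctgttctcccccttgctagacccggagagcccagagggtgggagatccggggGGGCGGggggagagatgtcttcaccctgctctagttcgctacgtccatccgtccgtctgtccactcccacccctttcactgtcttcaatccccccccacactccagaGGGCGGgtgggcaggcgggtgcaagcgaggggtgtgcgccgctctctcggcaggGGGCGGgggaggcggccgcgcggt
Pclo: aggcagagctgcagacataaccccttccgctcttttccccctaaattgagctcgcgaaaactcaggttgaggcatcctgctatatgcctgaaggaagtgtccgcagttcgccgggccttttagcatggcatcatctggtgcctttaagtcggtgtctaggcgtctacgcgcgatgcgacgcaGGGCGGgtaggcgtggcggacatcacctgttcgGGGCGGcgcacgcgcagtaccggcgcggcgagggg
Sv2b: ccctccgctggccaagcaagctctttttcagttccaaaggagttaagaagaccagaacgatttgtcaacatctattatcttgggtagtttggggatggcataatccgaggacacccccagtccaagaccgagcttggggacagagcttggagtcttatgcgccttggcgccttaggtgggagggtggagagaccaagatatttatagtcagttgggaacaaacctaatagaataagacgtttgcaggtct
The box is thus present in Rab3a and Nlgn2 and also in Pclo, and absent from these bases of Sv2b.

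Hypoxia was first set against control, to ask what 7 hours of low oxygen did to these transcripts. The differences were small. On the log2 scale with 1 CPM added, the median of the 34 genes was 0.21 and that of all 12692 genes compared 0.05, with a range among the 34 of −0.78 to 0.63. No member was at least 2-fold apart, where 1.99% of all genes were higher by this rule and 4.92% lower. At 1.5-fold, 1 member was higher and 1 lower, against 8.46% and 13.8% of all genes. Above 0 stood 24 of the 34, against 54.5% of all genes, and above the median of all genes 22, where 50% do by construction. The interval of the fold lay above 1 for 22 members and below 1 for 6, against 37.8% and 30% of all genes. Intervals narrow as reads grow, and most members have many reads, so these shares are not for genes of like depth. Scaling each library to the same sum moved the median of all genes to −0.10 and that of the members to 0.03, and 6 members with small ratios, Syn3, Syt1, Unc13a, Bsn, Slc17a7 and Dlg3, were then below 0. Under that scaling, which shifts members and other genes nearly alike, 21 of the 34 stood above the median of all genes.

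**Figure D2:**
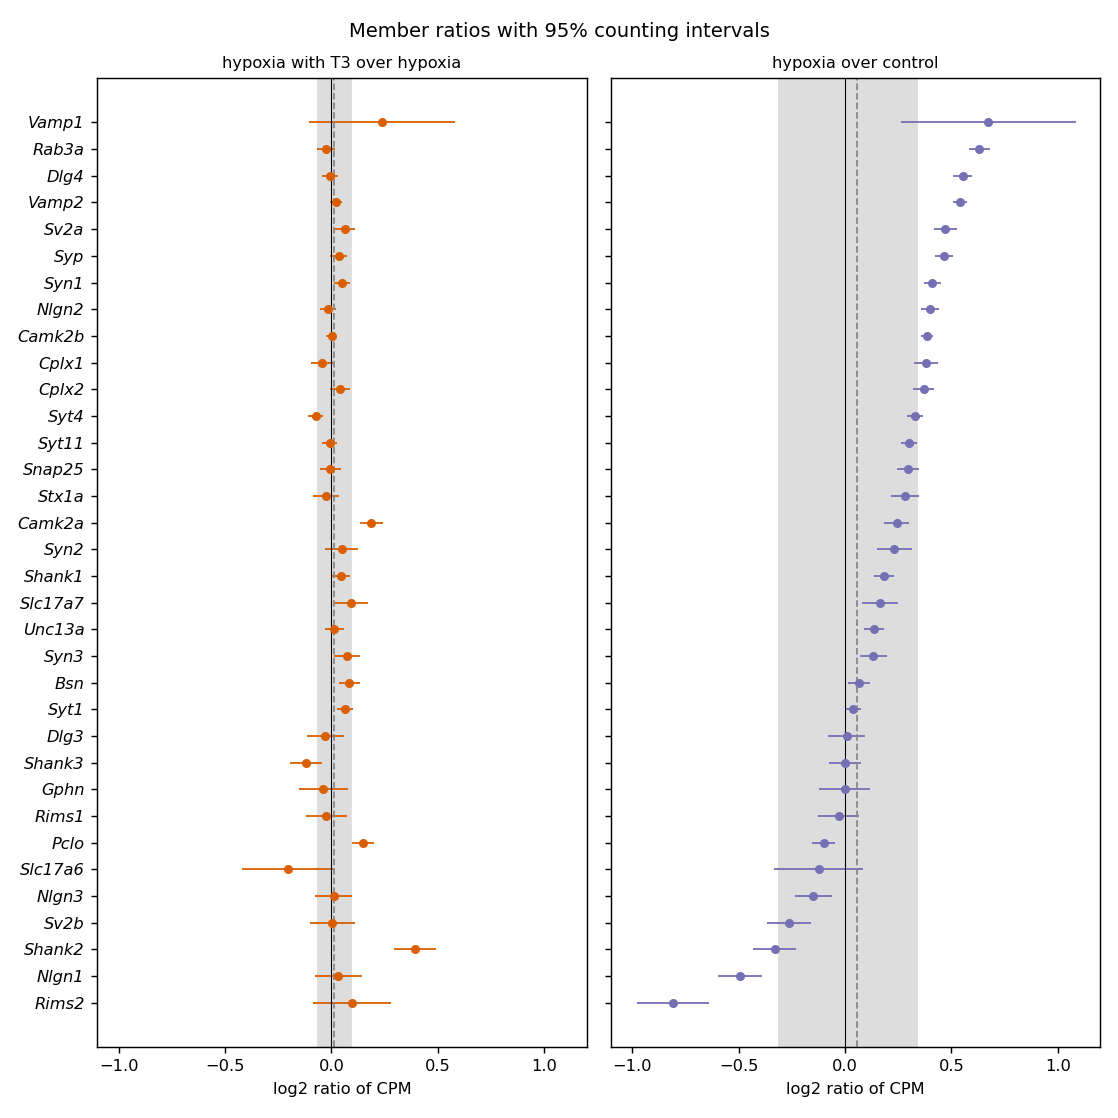
Log2 ratio of CPM for the 34 compared genes, hypoxia with T3 over hypoxia (left) and hypoxia over control (right), in the order of the right panel; bars are 95% counting intervals, the dashed line is the median of all genes compared and the grey band their middle 50% on the log2 scale with 1 CPM added. The right panel runs from Rims2 at the bottom to Vamp1 at the top, and in the left panel Shank2 stands highest, while the bars of Vamp1 and Slc17a6 are the widest.

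The SNARE proteins and complexins, which carry out fusion, were all higher in hypoxia than in control, and so they were with libraries scaled to equal sums. Vamp2 (chromosome 11, 69088490 to 69092384, plus strand of mm10), a gene of 3.895 kb, measured 989.8 CPM in hypoxia with T3, 976 CPM in hypoxia and 671 CPM in control. Both hypoxic libraries lay above control, and hypoxia was 1.45-fold higher (1.42 to 1.49) over control. Snap25, a SNARE of the plasma membrane, was at 339 CPM in hypoxia with T3, 341 CPM in hypoxia and 277 CPM in control, and hypoxia was 1.23-fold higher (1.18 to 1.27). Stx1a, syntaxin 1A, was at 205 CPM in hypoxia with T3, 209 CPM in hypoxia and 172 CPM in control, 1.22-fold higher (1.16 to 1.27) in hypoxia than in control. These differences were below 1.5-fold, and Vamp2 ranked above 89.2% of all genes by its ratio. Vamp1 was at 7.74 CPM in hypoxia with T3, 6.57 CPM in hypoxia and 4.12 CPM in control, from 182 reads in hypoxia with T3, 119 in hypoxia and 89 in control, and hypoxia was 1.59-fold higher (1.201 to 2.12). With 1 CPM added its log2 ratio was 0.56, short of the 1.5-fold rule. The complexin gene Cplx1 was at 283 CPM in hypoxia with T3, 292 CPM in hypoxia and 224 CPM in control, 1.303-fold higher (1.25 to 1.36) in hypoxia, and its paralog Cplx2 was at 375 CPM in hypoxia with T3, 365 CPM in hypoxia and 283 CPM in control, 1.29-fold higher (1.25 to 1.34). The fold of each complexin lay within the interval of the other.

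Of the vesicle membrane genes Syp, Sv2a and Sv2b, Syp and Sv2a were higher in hypoxia than in control and Sv2b was lower. Synaptophysin (Syp), an abundant vesicle membrane protein, was at 525 CPM in hypoxia with T3, 513 CPM in hypoxia and 371 CPM in control, 1.38-fold higher (1.34 to 1.42) in hypoxia. Sv2a, the vesicle glycoprotein that binds levetiracetam, was at 361 CPM in hypoxia with T3, 346 CPM in hypoxia and 249.6 CPM in control, 1.39-fold higher (1.34 to 1.44). Its paralog Sv2b stood on the other side, at 72.1 CPM in hypoxia with T3, 71.9 CPM in hypoxia and 86.2 CPM in control, 1.198-fold lower (1.12 to 1.29). The SV2 pair therefore lay on opposite sides of control in both hypoxic libraries.

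Synapsins tether vesicles to the cytoskeleton in the reserve pool. Syn1 was at 621 CPM in hypoxia with T3, 599.8 CPM in hypoxia and 451 CPM in control, and hypoxia was 1.33-fold higher (1.29 to 1.37) over control. Syn2 was at 134 CPM in hypoxia with T3, 129.8 CPM in hypoxia and 111 CPM in control, 1.17-fold higher (1.11 to 1.24), and Syn3, a synapsin of early neuronal development, at 225 CPM in hypoxia with T3, 214 CPM in hypoxia and 195 CPM in control, 1.097-fold higher (1.05 to 1.15). The order of the ratios was Syn1, Syn2, Syn3, and that of Syn3 was below 1 with libraries scaled to equal sums. Timp3, which lies within Syn3 on the opposite strand, overlaps 14.1% of its exonic bases and was at 22.2 CPM in hypoxia with T3, 20.1 CPM in hypoxia and 16.4 CPM in control. The kit keeps strand, but whether counting used it is not given in the sources used here.

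Synaptotagmins differed among themselves. Syt1, the calcium sensor of fast release in the cortex, was at 609 CPM in hypoxia with T3, 583 CPM in hypoxia and 568 CPM in control, with a ratio of 1.03 (1 to 1.05) of hypoxia over control, below 1 with libraries scaled to equal sums. Syt4 was at 665 CPM in hypoxia with T3, 700.3 CPM in hypoxia and 558 CPM in control, 1.26-fold higher (1.22 to 1.29) in hypoxia. Syt11, which does not bind calcium, was at 585 CPM in hypoxia with T3, 589 CPM in hypoxia and 478 CPM in control, 1.23-fold higher (1.198 to 1.27). The main calcium sensor therefore differed least of the 3 compared.

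The active zone genes held both the highest and the lowest ratio called among the members. Rab3a (chromosome 8, 70754679 to 70758677, plus strand), the GTPase that brings vesicles to RIM, measured 417 CPM in hypoxia with T3, 425 CPM in hypoxia and 274 CPM in control, and hypoxia was 1.55-fold higher (1.497 to 1.603) over control. It was the 1 member at least 1.5-fold higher, with 6.85% of all genes above it, and that call was lost with libraries scaled to equal sums (log2 0.46) and with median-of-ratios size factors (log2 0.57). Rims2 (chromosome 15, 39198261 to 39684372, plus strand), a RIM scaffold of the release site, measured 25.4 CPM in hypoxia with T3, 23.7 CPM in hypoxia and 41.5 CPM in control, from 597 reads in hypoxia with T3, 430 in hypoxia and 896 in control. Both hypoxic libraries lay well below control, hypoxia was 1.75-fold lower (1.56 to 1.97), and 8.74% of all genes had a lower ratio. Rims1, its paralog, was at 85.2 CPM in hypoxia with T3, 86.6 CPM in hypoxia and 88.4 CPM in control, with a ratio of 0.98 (0.916 to 1.05), so that counting error covers the difference. The priming factor gene Unc13a was at 408 CPM in hypoxia with T3, 404 CPM in hypoxia and 367 CPM in control, 1.1-fold higher (1.07 to 1.14). Bassoon (Bsn) was at 329 CPM in hypoxia with T3, 310.3 CPM in hypoxia and 296 CPM in control, 1.05-fold higher (1.01 to 1.09), and both these ratios turned below 1 with libraries scaled to equal sums. Piccolo (Pclo) was at 312 CPM in hypoxia with T3, 281 CPM in hypoxia and 302 CPM in control, 1.07-fold lower (1.03 to 1.11).

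The vesicular glutamate transporters load vesicles with glutamate. Slc17a7 was at 131 CPM in hypoxia with T3, 123 CPM in hypoxia and 109 CPM in control, 1.12-fold higher (1.06 to 1.19) in hypoxia, but below 1 with libraries scaled to equal sums. Slc17a6 was at 16.2 CPM in hypoxia with T3, 18.7 CPM in hypoxia and 20.3 CPM in control, with a ratio of 0.918 (0.794 to 1.06), an interval that holds 1.

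On the postsynaptic side the 5 excitatory scaffolds split. Dlg4 (chromosome 11, 70016942 to 70047522, plus strand), which encodes PSD-95, was at 524 CPM in hypoxia with T3, 526 CPM in hypoxia and 359 CPM in control, and hypoxia was 1.47-fold higher (1.42 to 1.51) over control. Dlg3, which encodes SAP102, the related scaffold of immature synapses, was at 103 CPM in hypoxia with T3, 106 CPM in hypoxia and 105 CPM in control, with a ratio of 1.01 (0.945 to 1.07). Only the PSD-95 transcript of this pair had an interval clear of 1. Shank1 was at 431 CPM in hypoxia with T3, 418 CPM in hypoxia and 368 CPM in control, 1.13-fold higher (1.099 to 1.17). Shank3, deleted in Phelan-McDermid syndrome, was at 134 CPM in hypoxia with T3, 146 CPM in hypoxia and 146 CPM in control, with a ratio of 0.999 (0.949 to 1.05). Shank2 (chromosome 7, 144001928 to 144424494, plus strand) measured 96.8 CPM in hypoxia with T3, 73.8 CPM in hypoxia and 92.8 CPM in control, 1.26-fold lower (1.17 to 1.35) in hypoxia than in control, and hypoxia with T3 lay at about the control level. The 3 Shank genes thus ran from above to below control.

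The kinase CaMKII is needed for long-term potentiation, and both subunit genes among the members were higher in hypoxia than in control. Camk2b, the most abundant of the 35 genes in CPM, was at 1130.4 CPM in hypoxia with T3, 1129.6 CPM in hypoxia and 865 CPM in control, 1.31-fold higher (1.28 to 1.33) in hypoxia. Camk2a was at 283 CPM in hypoxia with T3, 248 CPM in hypoxia and 210.0 CPM in control, 1.18-fold higher (1.13 to 1.23), and here the library with T3 stood highest.

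Neuroligins differed among themselves. Nlgn2, found at inhibitory synapses, was at 532 CPM in hypoxia with T3, 538 CPM in hypoxia and 409 CPM in control, 1.32-fold higher (1.28 to 1.36) in hypoxia. Nlgn1 (chromosome 3, 25426215 to 26332460, minus strand), found at excitatory synapses, was at 67.8 CPM in hypoxia with T3, 66.3 CPM in hypoxia and 93.4 CPM in control, 1.41-fold lower (1.31 to 1.51), and with libraries scaled to equal sums its log2 ratio of −0.66 was past the 1.5-fold rule. Nlgn3, found at both, was at 108 CPM in hypoxia with T3, 107 CPM in hypoxia and 119 CPM in control, 1.11-fold lower (1.04 to 1.18). An overlapping model on the same strand covers 41.2% of the exonic bases of Nlgn3, which leaves its reads uncertain. Gephyrin (Gphn), the scaffold of inhibitory synapses that binds Nlgn2, was at 58.1 CPM in hypoxia with T3, 59.7 CPM in hypoxia and 59.8 CPM in control, with a ratio of 0.999 (0.92 to 1.08). Nlgn2 and its scaffold partner thus did not share a direction, with Nlgn2 above control and Gphn level with it.

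Because members of a family are read in the same library, the share each takes of its family's reads does not depend on how libraries are scaled. Of 11 families, 8 had a member whose exact Clopper-Pearson interval in hypoxia lay apart from that in control. No like count was taken over other gene families, so it has no background share and says nothing particular of synaptic families. These families hold many reads, so their intervals are narrow and small shifts count as apart. An example is Camk2a, at 18.03% of the CaMKII pair in hypoxia and 19.5% in control. The share of Nlgn1 among neuroligin reads was 9.58% (9.14 to 10.04) in hypoxia with T3, 9.32% (8.82 to 9.83) in hypoxia and 15.04% (14.4 to 15.7) in control. Sv2b took 16.6% (15.9 to 17.4) in hypoxia with T3, 17.2% (16.4 to 18.1) in hypoxia and 25.7% (24.7 to 26.7) in control, of the reads of the SV2 pair. Both were smaller in the hypoxic libraries than in control. Rims2 took 22.96% (21.4 to 24.6) in hypoxia with T3, 21.5% (19.7 to 23.4) in hypoxia and 31.97% (30.2 to 33.7) in control, of the reads of Rims1 and Rims2. Rims3 and Rims4, which lie outside the members, are left out of that share. Dlg3 took 16.5% (15.9 to 17.1) in hypoxia with T3, 16.7% (16.02 to 17.4) in hypoxia and 22.6% (21.8 to 23.5) in control, of the reads of Dlg3 and Dlg4. Among the listed members of these 4 families the reads were therefore more one-sided under hypoxia, towards Nlgn2, Sv2a, Rims1 and Dlg4. Complexins, synaptobrevins and vesicular glutamate transporters had overlapping intervals between hypoxia and control: Cplx1 took 42.98% (42.2 to 43.8) in hypoxia with T3, 44.4% (43.5 to 45.3) in hypoxia and 44.2% (43.2 to 45.1) in control.

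**Figure D3:**
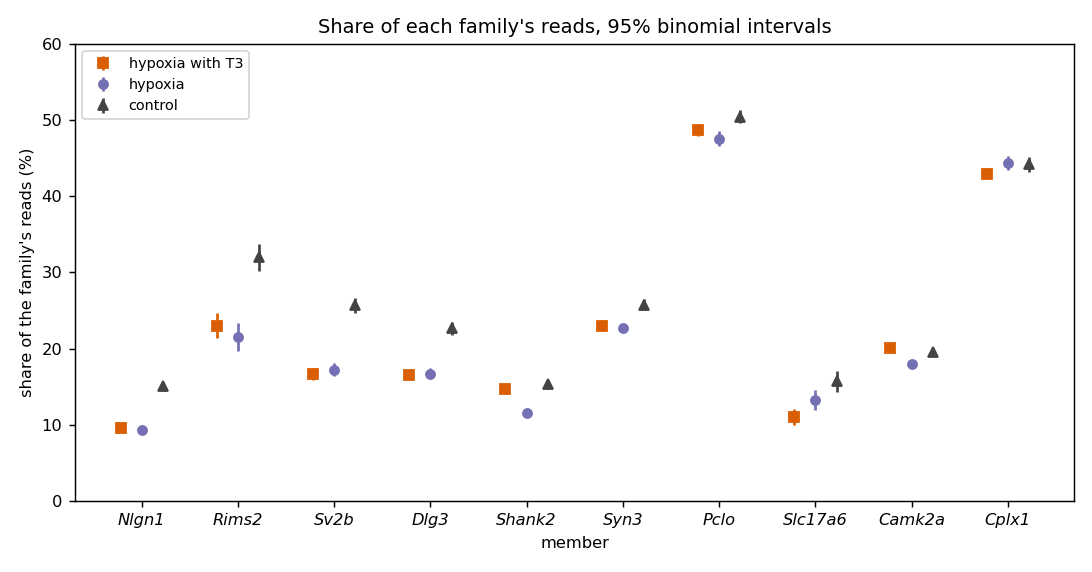
Share of each family's reads taken by 1 member (y axis, percent; not corrected for length) in hypoxia with T3, hypoxia and control; each point is 1 library and bars are exact 95% binomial intervals. The shares of Nlgn1, Rims2, Sv2b and Dlg3 are lower in both hypoxic libraries than in control, and that of Shank2 is lower in hypoxia alone.

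The ratio went with the length of the gene. Among the 34 members Spearman's rho between gene span, from first to last exon, and the hypoxia over control log2 ratio was −0.69, and across 12606 genes with an annotated span it was −0.51. These are descriptions across genes, which share the same libraries and are not independent. The 22 members above the median of all genes had a median span of 30.5 kb and the 12 others 386 kb. Of the 10 members under 30 kb, 9 stood above that median, with Nlgn3 (26.8 kb) as the exception. Of the 8 that span 300 kb or more, 1 did, Syn3 (444 kb), and the others were Syt1, Rims1, Rims2, Pclo, Shank2, Nlgn1 and Gphn. All genes of such spans lay on the same sides, so these counts are not particular to the members. The median log2 ratio of all genes was 0.33 under 10 kb, 0.18 at 10 to 30 kb and −0.37 at 300 kb or more. Over every span it was 0.05. In 6 of the 8 families with shares apart, the longest gene had the smaller share in hypoxia. The exceptions were the RIM pair, in which Rims1 is the longer, and the CaMKII pair. That count has no background from other gene families either.

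Within a class of span the members nevertheless lay mostly above other genes. The 14 members of 30 to 100 kb had a median log2 ratio of 0.27, where all 3660 genes of that class had −0.12, and all 14 were above it, Slc17a6 by less than 0.01. The 8 members of 300 kb or more had a median of −0.06, against −0.37 for all 497 genes, with Rims2 and Nlgn1 below the class median. The 7 of 10 to 30 kb had 0.37, against 0.18 for 3967 genes, and the 3 under 10 kb, Syt4, Vamp2 and Rab3a, had 0.54, against 0.33 for 2957 genes. In all, 29 of 34 members stood above the median of their own class, and the 5 others were Syt4, Slc17a7, Rims2, Nlgn1 and Nlgn3. The ratio of a member also went with its level (rho 0.63 with mean CPM, and 0.24 across the genes with a span). The part of span and of level in the differences was not tested.

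**Figure D4:**
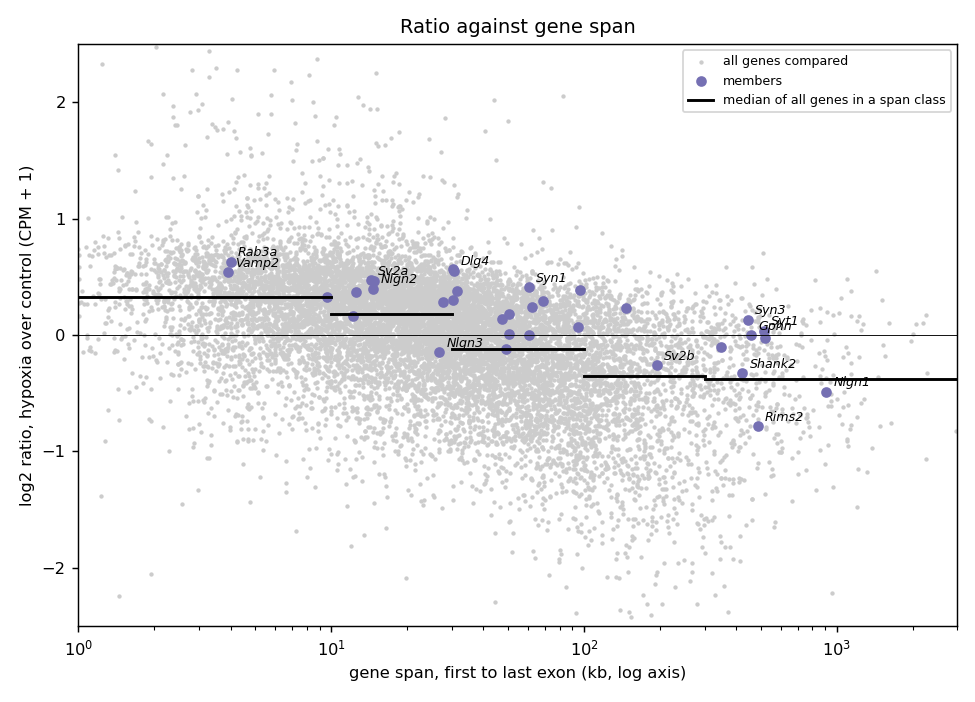
Log2 ratio of hypoxia over control (CPM with 1 added, y axis) against gene span in kb (log axis) for all genes compared (grey) and the members (purple); black lines are medians of all genes in classes of span, and genes beyond the axis limits are not drawn. Members run down from Rab3a and Vamp2 on the left to Rims2 and Nlgn1 on the right, and 29 of 34 lie above the line of their class.

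Hypoxia with T3 was set against hypoxia without it, to ask what the hormone added under low oxygen. For these genes the difference was small: the median log2 ratio of the 34 members was 0.02 and that of all genes 0.01, with a range of −0.19 to 0.39. Above 0 stood 21 of the 34, against 54.1% of all genes. No member was 1.5-fold apart, against 0.717% of all genes higher and 0.276% lower, and none was 2-fold apart, against 0.126% and 0.063%. The interval of the fold lay above 1 for 10 members and below 1 for 2, against 11.1% and 6.71% of all genes. Most members have many reads and so narrow intervals, which makes these shares no like background for the 2 counts.

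Shank2 stood out among them, 1.31-fold higher (1.23 to 1.405) with T3 than without, and 2.63% of all genes had a higher ratio. It was at 96.8 CPM in hypoxia with T3 and 73.8 CPM in hypoxia, against 92.8 CPM in control, so that hypoxia was low and the fold between the other libraries had an interval that held 1. Its share of Shank reads was 14.6% (14.1 to 15.2) in hypoxia with T3, 11.6% (11.01 to 12.2) in hypoxia and 15.3% (14.7 to 15.9) in control, and that of Shank3 was 20.3% (19.6 to 20.9) in hypoxia with T3, 22.8% (22.1 to 23.6) in hypoxia and 24.01% (23.3 to 24.8) in control. Shank3 was 1.09-fold lower (1.03 to 1.14) with T3. Camk2a was 1.14-fold higher (1.096 to 1.18) with T3, at 283 CPM in hypoxia with T3 against 248 CPM in hypoxia. It took 20.02% (19.6 to 20.5) in hypoxia with T3, 18.03% (17.6 to 18.5) in hypoxia and 19.5% (19.03 to 20.1) in control, of the reads of Camk2a and Camk2b. Piccolo was 1.11-fold higher (1.07 to 1.15), at 312 CPM in hypoxia with T3 and 281 CPM in hypoxia. These 3 genes, Shank2, Camk2a and Pclo, had the highest ratios of the members with intervals above 1. Syt4 was the other gene with an interval below 1, 1.05-fold lower (1.03 to 1.08) with T3. Slc17a6 had the lowest ratio of the 34, at 16.2 CPM in hypoxia with T3 and 18.7 CPM in hypoxia, but its interval held 1 at 1.15-fold lower (0.992 to 1.34). Vamp2, Snap25, Syp, Dlg4, Rab3a, Nlgn1 and Nlgn2 had ratios within 5% of 1 on either side, for example a ratio of 1.01 (0.995 to 1.03) for Vamp2 and a ratio of 0.995 (0.968 to 1.02) for Dlg4.

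Hypoxia with T3 was also set against the same control library, so that its ratios share that library with those of hypoxia over control and are no second measurement of it. The median log2 ratio of the 34 members was 0.25 and that of all genes 0.08, and 25 of the 34 were above 0, against 56.4% of all genes. Intervals lay above 1 for 24 members and below 1 for 6, against 40% and 29.6% of all genes, with the same limit of unlike read depth. At 1.5-fold 2 members were higher, against 8.73% of all genes, and 1 was lower, against 13.1%. They were Vamp1, 1.88-fold higher (1.45 to 2.45), Rab3a, 1.52-fold higher (1.47 to 1.57), and Rims2, 1.64-fold lower (1.47 to 1.82). None reached 2-fold, where 2.06% of all genes were higher and 4.59% lower. With libraries scaled to equal sums or by median-of-ratios size factors, Rab3a no longer met the rule. Shank2 had a ratio of 1.04 (0.982 to 1.11), which turned below 1 with libraries scaled to equal sums and with median-of-ratios size factors.

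Other genes of the synapse outside the 35 were listed by side. Of 57 other presynaptic genes compared, 42 stood above the median of all genes for hypoxia over control, with a list median of 0.24 on the log2 scale. With 1 CPM added, 2 were at least 1.5-fold higher, against 8.46% of all genes, and 1 lower, against 13.8%. The highest were Slc32a1, the vesicular GABA transporter, at 52.1 CPM in hypoxia with T3, 53.96 CPM in hypoxia and 34.4 CPM in control, 1.57-fold higher (1.42 to 1.73), followed by Syt5 at 1.52-fold higher (1.44 to 1.6) and Sncb, beta-synuclein at 1.502-fold higher (1.43 to 1.57). The lowest were Stxbp5l, or tomosyn-2, at 24.8 CPM in hypoxia with T3, 22.1 CPM in hypoxia and 35.4 CPM in control, 1.603-fold lower (1.42 to 1.81), then Rimbp2 at 1.41-fold lower (1.26 to 1.58) and Stxbp5 at 1.33-fold lower (1.23 to 1.44). The 3 highest span 4.98 to 7.78 kb and the 3 lowest 146 to 270.0 kb.

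Of 55 other postsynaptic genes, 24 stood above the median of all genes, with a list median of 0.01. At 1.5-fold 2 were higher, against 8.46% of all genes, and 11 lower, against 13.8%. Nptx1, a secreted pentraxin that clusters AMPA receptors, was at 51.5 CPM in hypoxia with T3, 35.8 CPM in hypoxia and 16.4 CPM in control, 2.19-fold higher (1.92 to 2.498) in hypoxia than in control. Its receptor Nptxr was at 368 CPM in hypoxia with T3, 425 CPM in hypoxia and 272 CPM in control, 1.56-fold higher (1.51 to 1.61), and the CaMKII inhibitor gene Camk2n1 at 139.7 CPM in hypoxia with T3, 97.1 CPM in hypoxia and 68.8 CPM in control, 1.41-fold higher (1.32 to 1.51). The lowest were the scaffold genes Dlgap2, at 6.76 CPM in hypoxia with T3, 7.29 CPM in hypoxia and 17.5 CPM in control, 2.397-fold lower (1.96 to 2.94), Magi3, at 28.3 CPM in hypoxia with T3, 37.5 CPM in hypoxia and 76.8 CPM in control, 2.05-fold lower (1.87 to 2.24), and Sipa1l3, 2.02-fold lower (1.81 to 2.25). These 3 span 198 kb or more.

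With T3 against hypoxia no other synaptic gene of either list was 1.5-fold apart on the log2 scale with 1 CPM added. The genes named next have a mean of at least 5 CPM. Syt12, at 2.04 CPM in hypoxia with T3 and 1.33 CPM in hypoxia, lies under that limit. Its log2 ratio of 0.39 was the highest of the presynaptic list, from 48 reads in hypoxia with T3 and 24 in hypoxia. Camk2n1 was 1.44-fold higher (1.36 to 1.53) and Nptx1 1.44-fold higher (1.31 to 1.59), the highest on the postsynaptic list, before Mpp3 at 1.17-fold higher (1.05 to 1.302). The lowest there were Magi3 at 1.32-fold lower (1.19 to 1.48), Lin7a at 1.31-fold lower (1.15 to 1.5) and Nptxr at 1.16-fold lower (1.12 to 1.19). On the presynaptic list Syt13 at 1.27-fold higher (1.07 to 1.51), Doc2a at 1.21-fold higher (1.06 to 1.38) and Syt3 at 1.199-fold higher (1.07 to 1.34) were highest, and Synpr at 1.39-fold lower (1.101 to 1.75), Ppfia1 at 1.09-fold lower (0.971 to 1.22) and Ppfia4 at 1.07-fold lower (0.978 to 1.17) lowest. Camk2n1 and Nptx1 stood above control in hypoxia and higher still with T3. Camk2a shared this order of libraries, and so did many other members, among them Syn1, Sv2a and Vamp1. Over control, hypoxia with T3 was 3.15-fold higher (2.796 to 3.56) for Nptx1, 2.03-fold higher (1.91 to 2.16) for Camk2n1 and 1.37-fold higher (1.305 to 1.43) for Shisa7, and 2.71-fold lower (2.48 to 2.97) for Magi3, 2.58-fold lower (2.14 to 3.13) for Dlgap2 and 2.39-fold lower (2.14 to 2.68) for Lin7a. On the presynaptic side these were 1.68-fold higher (1.41 to 2.01) for Syt13, 1.57-fold higher (1.37 to 1.802) for Doc2a and 1.53-fold higher (1.43 to 1.64) for Rph3a, and 1.43-fold lower (1.28 to 1.59) for Stxbp5l, 1.37-fold lower (1.24 to 1.52) for Ppfia1 and 1.34-fold lower (1.21 to 1.48) for Rimbp2.

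The authors' deposited tables of each hypoxic library against control hold all 35 genes among 13152. In them 0 of the 35 had a false discovery rate below 0.05 in either comparison. For hypoxia the authors' deposited table gave Rims2 a signed fold of −1.82 (negative where the gene was lower, with the fold inverted) with a p-value of 0.163, the lowest of the 35, from a test that is not named. Rab3a had 1.48 and Nlgn1 −1.47 in the authors' deposited table. There 22 of the 35 were above control in hypoxia and 13 below, and 23 and 12 in hypoxia with T3. None of the counts from these deposited tables was taken over all 13152 genes, so they have no background share and say nothing particular of the members.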

How the data were processed

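Total RNA of each group gave 1 strand-specific library with a KAPA kit, per the labels' protocols. The build mm10 and the tools RSEM 1.2.15, Bowtie2 2.1.0 and bcl2fastq 2.17 stand without roles in the submitters' processing notes. The authors deposited CPM, named as TMM-normalised. All values (100%) were whole multiples, within 0.01, of 1 read, so whole reads were recovered, and 1 read stood for 0.0425 CPM in hypoxia with T3, 0.0552 in hypoxia and 0.0463 in control. The authors also deposited 2 comparison tables, which per the file headers hold a signed fold (treated as a score), a p-value, a false discovery rate and a normalised signal that is not used here.

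Log2 ratios of CPM with 1 CPM added were taken over 12692 genes whose mean was 1 CPM or more. Folds are plain CPM ratios, and each 95% interval was obtained from the exact Clopper-Pearson limits of one library's part of a gene's reads in both. A count of 0 allows up to 3 reads. Reads carry no molecular identifiers, so these intervals and limits hold counting error alone. No count test was run, since groups are single libraries. The members and lists were chosen with earlier results of these data known. All 35 members are named, and of the other synaptic genes the 3 highest and 3 lowest ratios per list and comparison with a mean of at least 5 CPM. Spans and exonic lengths are from GENCODE M21 (GRCm38), matched by symbol for 12121 compared genes and by synonym for 485. Alternatives were the added value, the filter on low values and the scaling. The procedure was tested on simulated data. Software was scipy 1.17.1, matplotlib 3.10.9, pandas 2.3.3 and numpy 2.4.6 under Python 3.11.15.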

Additional observations from a re-analysis of the deposited data

How the results depend on the processing

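The median of the members minus that of all genes ranged from 0.12 to 0.17 on the log2 scale for hypoxia over control. Scaling shifts members and other genes nearly alike and bears little on this difference. For hypoxia with T3 over hypoxia the median of the members minus that of all genes was 0.01. The counting interval of a single member had a median half-width of 0.05 on the log2 scale. That width belongs to 1 gene and not to a difference of medians, whose counting error was not obtained, so no direction is drawn from the 0.01. The count of members at least 1.5-fold higher in hypoxia than in control, 1 by the reported processing, was 2 with 0.5 CPM added and 0 with libraries scaled to equal sums or by median-of-ratios size factors, and the count of lower members, 1, was 2 with equal sums. For hypoxia with T3 over control the count of higher members, 2, was 1 with 5 CPM added, with equal sums and with median-of-ratios size factors, and the count of lower members, 1, was 2 with equal sums. No called member changed direction. In the equal-sum scaling 6 members changed sign for hypoxia over control, 5 for hypoxia with T3 over control and 4 for hypoxia with T3 over hypoxia. With median-of-ratios size factors these were 2 (Syt1 and Dlg3), 2 (Pclo and Shank2) and 5 (Sv2b, Vamp2, Unc13a, Camk2b and Nlgn3). No paired analysis was possible because each group holds 1 library, and no library could be left out. Depth limits Syt2 and Vamp1 most.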

Other observations

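Promoter letters and ratios can be set side by side. The 18 compared members with a GC box in the 250 bases before the start had a median log2 ratio of hypoxia over control of 0.26, from −0.12 to 0.63, and the 7 without one had 0.07, from −0.49 to 0.55. The ranges overlap, and Dlg4, Syn1 and Cplx2 stand among those without a box. No such split was made over all genes compared, so the medians say nothing particular of the members. The starts used are those of RefSeq. That of Cplx2 lies far before its GENCODE M21 start, and that of Dlg3 lies inside its GENCODE M21 gene. Both count among the 7 without a box.

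Span depends on the annotation for 3 members, whose class differs between GENCODE M21 and RefSeq. Cplx2 spans 12.6 kb in the first and 82.0 kb in the second, Vamp1 30.4 and 6.73 kb, and Dlg4 30.6 and 28.3 kb. With RefSeq spans the rank correlation of span and the log2 ratio of hypoxia over control across the 34 members was −0.70.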
